A study of Caenorhabditis elegans with 30 samples.

Results

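The comparison described here set RNA of XO larvae fed vector RNAi against RNA of wild-type XX larvae, across every gene whose authors' mean RPKM (reads per kilobase of transcript, scaled to the mapped reads of a library), averaged over both groups, was above 1. Of the 46170 genes in the deposited table, 15240 met this rule, and 12968 of these are protein-coding. The wild-type XX group had 4 libraries of strain N2, grown on NGM plates with OP50 bacteria. The XO group had 5 libraries of strain TY1072, in which sdc-2(y74) on the X is combined with the her-1(e1520) mutation on chromosome V. These animals carry 1 X chromosome but develop as hermaphrodites, and they were grown on bacteria with the empty RNAi vector. Another 4 libraries came from dpy-21(e428) XX larvae and another 5 from TY1072 larvae on mys-1(RNAi) bacteria. All larvae were L3, collected whole after 24 h on plates. Karyotype, the her-1 and sdc-2 mutations, and the bacteria and RNAi feeding all differ between the compared groups, and their contributions cannot be told apart. In whole larvae, fewer cells of a type and less RNA per cell cannot be told apart either. The mys-1 gene, which encodes the MYS-1/Tip60 acetyltransferase, had 14.3 RPKM in wild-type XX, 14.5 in dpy-21 XX, 15.7 in XO on vector and 51.7 in the last group. That group is called by its label, the libraries labelled mys-1(RNAi). RPKM does not tell RNA of the gene from RNA of the RNAi construct, and MYS-1 protein, which the study assayed separately, is not analysed here. The mys-1 gene overlaps npa-1, and the libraries did not keep the strand of the RNA, so reads from overlapping genes cannot be told apart. Such overlaps are named below for some genes only. cwp-4, flp-33, nlp-23, ugt-57, gst-18, B0403.5 and nhr-25 also overlap genes above 1 RPKM, as do others named below.

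In C. elegans, XX hermaphrodites lower transcription from both X chromosomes through the dosage compensation complex, a condensin-like assembly. SDC-2 brings this complex to the X and is also a known repressor of the sex determination gene her-1, whose secreted product directs male development. XO animals do not assemble the complex on their X. DPY-21 is a histone H4K20 demethylase that acts with it.

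The RPKM table used here holds only the mean of each group, so no value below carries an error between libraries and no difference was tested. A gene is called higher or lower where the log2 ratio of the XO mean to the XX mean, each with 0.1 RPKM added, reached 2-fold. By this rule 2674 genes were higher in XO, 17.5% of the 15240, and 1111 were lower, 7.29%. The other 11455 genes lay within 2-fold. Among the 12968 protein-coding genes alone, the shares were smaller, at 15.3% higher and 4.81% lower. The median log2 ratio of all genes was 0.18 and the quartiles were -0.21 and 0.69, so a list with a median near 0.18 sits with the bulk of genes. The summed RPKM differed little, at 1186380 in wild-type XX and 1160240 in XO on vector, and the 100 most abundant genes held 41.9% and 38.9% of it. The filter sat between phy-4, with 0.601 RPKM in XX and 1.40 in XO, and hlh-15, with 1.29 and 0.708.

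The remaining pair of groups gave a comparison that shares no library with the first. In the libraries labelled mys-1(RNAi) against dpy-21 XX, 14.9% of the 15240 genes were at least 2-fold higher in XO and 6.22% were at least 2-fold lower. Of the 2674 genes higher in the first comparison, 1310 were also higher in the second, 49.0% of the first list and 57.8% of the second. Of the 1111 lower genes, 329 were also lower, 29.6% of the first list and 34.7% of the second. In opposite directions, 130 genes were higher in the first and lower in the second, and 131 were the reverse. Across the 15240 genes, which are not independent replicates, the log2 ratios of both comparisons had a Spearman rho of 0.52 and a Pearson r of 0.33. Both XO means lay at least 2-fold above both XX means for 1134 genes, 7.44% of those compared. Both XX means lay at least 2-fold above both XO means for 250 genes, 1.64%.

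**Figure D1:**
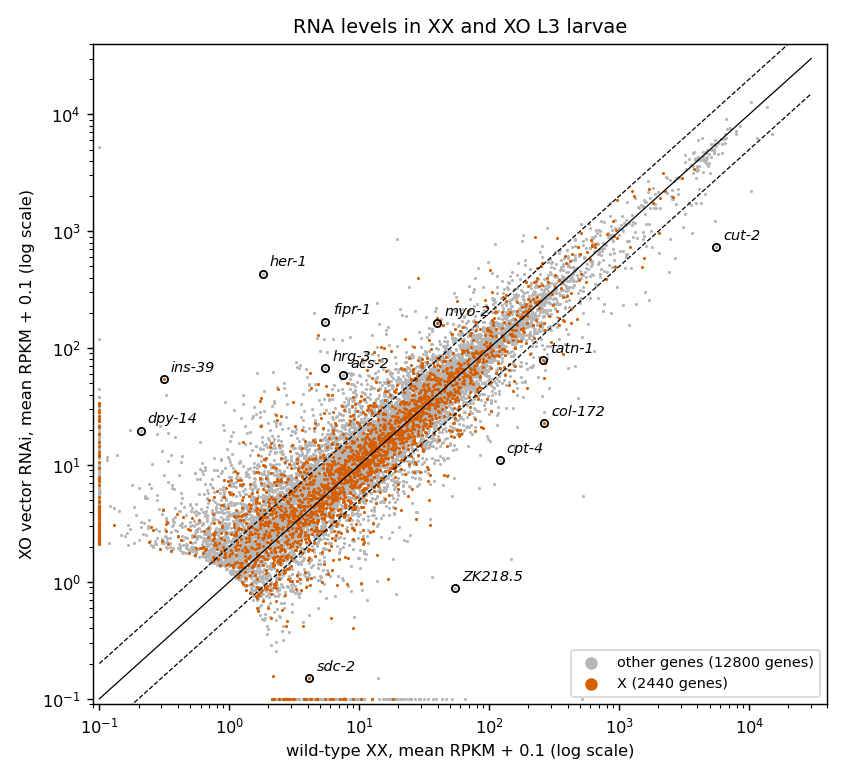
Each point is a gene, with its authors' mean RPKM plus 0.1 in wild-type XX on the horizontal axis and in XO on vector RNAi on the vertical axis, both on log scales; X-linked genes are orange, and the solid and dashed lines mark equal levels and 2-fold differences. her-1 and ins-39 lie far above the lines, sdc-2 and ZK218.5 far below, and the cloud widens toward low RPKM.

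The starts of 8 genes that the results below turn on are shown first. Of these, 5 have little RNA in wild-type XX and much in XO (her-1, ins-39, hrg-2, hrg-3 and C53B7.3). A further 1 is an X-linked defence gene of the same kind (abf-5), and 2 have less RNA in XO than in wild-type XX (cut-2 and cpt-4). Each run is 250 bases before and 50 bases after the start of the Ensembl gene model, read from the RefSeq genome, build WBcel235, in the direction of the gene. Capitals mark matches on either strand to TGATAA, the site of GATA factors, to AGGTCA, a site of nuclear hormone receptors, to GTAAACA, a site of forkhead factors such as DAF-16, and to TATAAA. The windows are chrV:9696765-9697064 (plus strand) for her-1, chrX:1344372-1344671 (minus strand) for ins-39, chrV:12410464-12410763 (minus strand) for hrg-2, chrV:9756218-9756517 (plus strand) for hrg-3, chrX:12792604-12792903 (plus strand) for abf-5, chrX:6844505-6844804 (plus strand) for C53B7.3, chrV:13414699-13414998 (plus strand) for cut-2 and chrV:5027674-5027973 (minus strand) for cpt-4.
her-1: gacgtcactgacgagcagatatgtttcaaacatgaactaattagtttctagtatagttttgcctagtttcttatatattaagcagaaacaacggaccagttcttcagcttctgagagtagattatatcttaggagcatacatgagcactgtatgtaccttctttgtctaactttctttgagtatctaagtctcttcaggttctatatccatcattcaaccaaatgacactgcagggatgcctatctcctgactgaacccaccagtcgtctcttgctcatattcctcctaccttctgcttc
ins-39: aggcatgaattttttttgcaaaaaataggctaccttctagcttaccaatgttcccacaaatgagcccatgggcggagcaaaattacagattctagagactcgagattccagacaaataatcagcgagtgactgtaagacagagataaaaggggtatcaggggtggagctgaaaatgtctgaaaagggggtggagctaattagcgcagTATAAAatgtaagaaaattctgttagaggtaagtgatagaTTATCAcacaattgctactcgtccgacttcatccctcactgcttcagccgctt
hrg-2: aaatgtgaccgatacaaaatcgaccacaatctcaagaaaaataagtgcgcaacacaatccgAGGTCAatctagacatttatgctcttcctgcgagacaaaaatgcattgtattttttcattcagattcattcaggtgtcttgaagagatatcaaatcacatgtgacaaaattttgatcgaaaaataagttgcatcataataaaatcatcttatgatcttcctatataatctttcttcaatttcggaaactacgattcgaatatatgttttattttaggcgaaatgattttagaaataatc
hrg-3: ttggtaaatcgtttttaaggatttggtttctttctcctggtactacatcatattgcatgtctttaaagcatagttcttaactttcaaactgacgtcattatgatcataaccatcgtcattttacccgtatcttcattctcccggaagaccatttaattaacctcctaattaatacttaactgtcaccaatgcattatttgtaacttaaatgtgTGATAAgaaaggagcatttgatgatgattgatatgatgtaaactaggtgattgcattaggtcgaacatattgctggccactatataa
abf-5: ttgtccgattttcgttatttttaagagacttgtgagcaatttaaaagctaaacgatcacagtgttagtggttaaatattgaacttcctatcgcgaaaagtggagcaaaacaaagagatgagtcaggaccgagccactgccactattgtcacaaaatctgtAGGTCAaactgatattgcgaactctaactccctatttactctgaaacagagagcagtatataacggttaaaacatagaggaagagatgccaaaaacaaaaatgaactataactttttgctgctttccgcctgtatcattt
C53B7.3: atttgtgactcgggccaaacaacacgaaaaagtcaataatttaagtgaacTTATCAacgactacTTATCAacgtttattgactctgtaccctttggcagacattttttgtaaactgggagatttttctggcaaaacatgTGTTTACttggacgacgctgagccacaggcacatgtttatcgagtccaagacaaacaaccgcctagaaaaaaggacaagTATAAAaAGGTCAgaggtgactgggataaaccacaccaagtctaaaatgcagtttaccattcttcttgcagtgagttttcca
cut-2: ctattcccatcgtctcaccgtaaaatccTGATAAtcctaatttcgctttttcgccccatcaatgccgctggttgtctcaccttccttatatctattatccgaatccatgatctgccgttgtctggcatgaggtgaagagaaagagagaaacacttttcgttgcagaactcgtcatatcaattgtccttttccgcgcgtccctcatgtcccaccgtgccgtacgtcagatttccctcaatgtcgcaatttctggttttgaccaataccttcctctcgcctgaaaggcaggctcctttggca
cpt-4: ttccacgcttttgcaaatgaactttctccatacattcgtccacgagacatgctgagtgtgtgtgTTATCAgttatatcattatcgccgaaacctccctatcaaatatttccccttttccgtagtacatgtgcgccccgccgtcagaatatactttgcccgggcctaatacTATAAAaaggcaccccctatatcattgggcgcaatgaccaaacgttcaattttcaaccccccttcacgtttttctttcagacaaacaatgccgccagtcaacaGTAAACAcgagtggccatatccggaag

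The her-1 window held none of these letters, and only the windows of hrg-2, abf-5 and C53B7.3 held AGGTCA. Among 12956 protein-coding genes with such a window, AGGTCA was present in 8.02%. It was present in 12.7% of the 1987 higher genes, in 5.77% of the 624 lower genes and in 7.26% of the 10345 genes within 2-fold. Among the 898 genes with both XO means above both XX means the share was 13.6%, and among the 145 of the reverse kind it was 4.83%. GTAAACA was present in 7.55% of higher genes, 4.49% of lower genes and 5.16% of all windows. TGATAA was present in 33.7% of higher and 33.2% of lower genes against 29.7% of all, and TATAAA in 41.0% and 39.3% against 36.0%, so these shares were alike in both directions. No motif contains another as written. A match describes the letters of a window and was not tested as a site.

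The genes that carry the mutations of the XO strain stood at the ends of the distribution. her-1, on chrV:9697015-9702035 (plus strand), had 1.70 RPKM in wild-type XX, 9.66 in dpy-21 XX, 434 in XO on vector and 428 in the labelled mys-1(RNAi) libraries. Its log2 ratio of 7.91 was the highest among protein-coding genes with an average above 10 RPKM. sdc-2 had 4.03 and 4.96 RPKM in the XX groups and 0.051 and 0.071 in the XO groups, a log2 ratio of -4.77. Its antisense partner anr-16, which overlaps it, went from 2.07 to 0.056 RPKM. dpy-21 itself lay at 29.6, 30.1, 37.4 and 34.3 RPKM in the same order of groups, so its RNA was not lower in the dpy-21 mutant.

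Most other listed genes of dosage compensation and sex determination lay within 2-fold. Of all genes 17.5% were higher and 7.29% lower. Of 10 genes listed for the complex, all of which passed the filter, 1 was higher, 1 was lower and the median log2 ratio was 0.35, against 0.18 for all genes. The higher gene was dpy-28, a condensin-like subunit, with 7.80, 9.30, 16.5 and 15.3 RPKM in wild-type XX, dpy-21 XX, XO on vector and the labelled mys-1(RNAi) libraries. Another such subunit, dpy-27, had 19.5, 22.9, 32.3 and 31.8 RPKM, below the 2-fold limit. The lower gene was sdc-2. Of 14 sex determination genes that passed, 2 were higher and none was lower, and the median was 0.00 (below zero when ratios were centred on autosomes or rescaled by the upper quartile). The terminal regulator tra-1, a zinc finger protein that directs hermaphrodite fate, had 51.9, 58.2, 51.0 and 46.2 RPKM. The second higher gene besides her-1 was fog-2, needed for sperm in hermaphrodites, with 1.51, 1.32, 3.46 and 4.48 RPKM. xol-1, the early switch gene of XO embryos, stayed below 1 RPKM in every group.

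Defining genes of males, sperm and adult germ line were mostly near 0. None of the 6 yolk protein genes passed the filter, and they summed to 1.06 RPKM in the wild-type XX mean and 0.499 in the XO mean. The 35 genes for major sperm proteins summed to 0.795 and 1.99 RPKM, and 13 early embryo genes to 0.790 and 1.79, none of them passing. Of 16 listed male-specific genes 15 were found in the data and 5 passed. Of these 2 were higher and 1 lower, against 17.5% and 7.29% of all genes. The median was 0.68, but -0.16 in the second comparison. The higher genes were cwp-4 and clhm-1, the latter with 8.45, 7.05, 17.9 and 17.2 RPKM in the order of groups used above. The lower gene, mab-23, had 5.30, 4.34, 2.26 and 3.88 RPKM. Within 2-fold lay mab-3, with 3.74, 4.79, 2.88 and 2.61, and nlp-8, with 37.9, 70.4, 60.6 and 59.4. cwp-4, a gene of male sensory neurons that overlaps mlk-1, had 0.679, 1.31, 3.36 and 2.55 RPKM. lov-1 and pkd-2, which define those neurons, stayed at or below 0.194 RPKM.

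The 15 protein-coding genes with the highest log2 ratios and an average above 10 RPKM lay between 4.63 and 7.91, and 10 of them are on chromosome V. They fell into sets that differed in dpy-21 XX. In the first set both XX groups were low. ins-39, an X-linked gene for an insulin-like peptide, had 0.213 RPKM in wild-type XX, 0.262 in dpy-21 XX, 54.2 in XO on vector and 45.0 in the labelled mys-1(RNAi) libraries. C50H11.8 had 0.994, 1.04, 29.5 and 28.6 RPKM, and B0250.18, which overlaps B0250.4, had 1.16, 2.08, 33.1 and 54.4. F59C6.18 had 0.191, 1.59, 21.5 and 38.7 RPKM, and its neighbour F59C6.16, which overlaps che-13, had 4.39, 18.2, 198 and 172. For these genes every XO mean was at least 2-fold above every XX mean.

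In the second set dpy-21 XX was closer to the XO groups. C01G10.4 had 0.228 RPKM in wild-type XX, 16.3 in dpy-21 XX, 39.3 in XO on vector and 23.4 in the labelled libraries. Its neighbour C01G10.5 had 1.54, 21.3, 61.7 and 35.6 RPKM. pqn-60 had 0.827, 12.3, 34.7 and 22.4, W02D7.11 had 1.17, 12.99, 39.3 and 27.9, and C53B7.3 had 4.74, 48.7, 130 and 91.8. ilys-3, an invertebrate-type lysozyme, had 0.787, 19.6, 21.8 and 17.3 RPKM, so its second comparison gave a log2 ratio of -0.18. The 15 genes were picked for a high ratio to the wild-type XX mean, so a low wild-type XX mean was part of the choice. Other groups set against that mean tend to lie above it. All 15 were higher in dpy-21 XX than in wild-type XX, by little for C50H11.8 (1.04 and 0.994 RPKM). In the second comparison, which does not use that mean, 10 of the 15 reached 2-fold. For ilys-3 the dpy-21 XX mean lay between the XO means.

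The first 4 genes below, of heme and fat handling, were picked after their values were seen, because both XO means lay above both XX means. On the list of lipid genes, 2 of the 35 that passed were higher in both comparisons, as were 1310 of the 15240 genes. hrg-3, which encodes a secreted carrier that brings heme from the intestine to other tissues, had 5.33, 2.62, 67.8 and 99.3 RPKM. It overlaps F58E6.11, which had 5.27, 7.57, 11.5 and 11.7 RPKM. hrg-2, a heme-responsive gene of the hypodermis, had 1.61, 1.39, 21.3 and 35.1 RPKM. acs-2, an acyl-CoA synthetase known for its response to fasting, had 7.35, 7.60, 58.4 and 40.8. asah-1, related to acid ceramidase, had 16.7, 15.0, 106 and 105 RPKM. Among 23 genes of propionate and vitamin B12 metabolism that passed, 2 were higher and 1 was lower, against 17.5% and 7.29% of all genes. The median of 0.18 was that of all genes. The higher genes were cbl-1, a cystathionine beta-lyase, with 13.8, 13.9, 37.2 and 49.0 RPKM, and mrp-5, the intestinal heme exporter, with 29.5, 29.5, 70.6 and 92.1.

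The 15 genes with the lowest log2 ratios ranged from -5.95 to -2.90, and for 12 of them the second comparison also passed 2-fold in the same direction. ZK218.5 had 54.5 RPKM in wild-type XX, 3.27 in dpy-21 XX, 0.783 in XO on vector and 0.458 in the labelled mys-1(RNAi) libraries. cut-2, which encodes a cuticlin, an insoluble cuticle protein, had 5523, 3159.6, 731 and 1163 RPKM. The carnitine palmitoyltransferase family gene cpt-4 had 119.9, 70.4, 10.9 and 14.3 RPKM. cut-4, of the cuticlin family, had 51.4, 15.0, 5.30 and 9.53, and R12E2.7 had 1184, 593, 159 and 222. Y37A1A.3 had 109, 43.6, 6.80 and 9.79 RPKM, and D2092.8 had 478, 175, 37.0 and 70.8. These 15 genes were picked for a wild-type XX mean that is high relative to XO, so other groups tend to lie below it. dpy-21 XX lay below wild-type XX for all 15, and above both XO means for all of those named here.

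A smaller number of genes was lower in XO with the 2 XX means close to each other, and these are named for that pattern. tatn-1, an X-linked tyrosine aminotransferase, had 260.4 and 338 RPKM in the XX groups and 78.6 and 86.5 in the XO groups. ceh-14, an X-linked LIM homeobox gene of neurons, had 19.8 and 24.5 against 6.14 and 6.72. C42D4.3 had 290.1 and 257 against 45.7 and 68.0, grl-4 had 279.6 and 244 against 88.3 and 88.1, and F35B3.4 had 153 and 143 against 43.1 and 50.0. F44G3.2 had 181 and 193 against 38.1 and 16.8 RPKM. In each of these the lower XX mean was more than 2-fold above the higher XO mean.

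**Figure D2:**
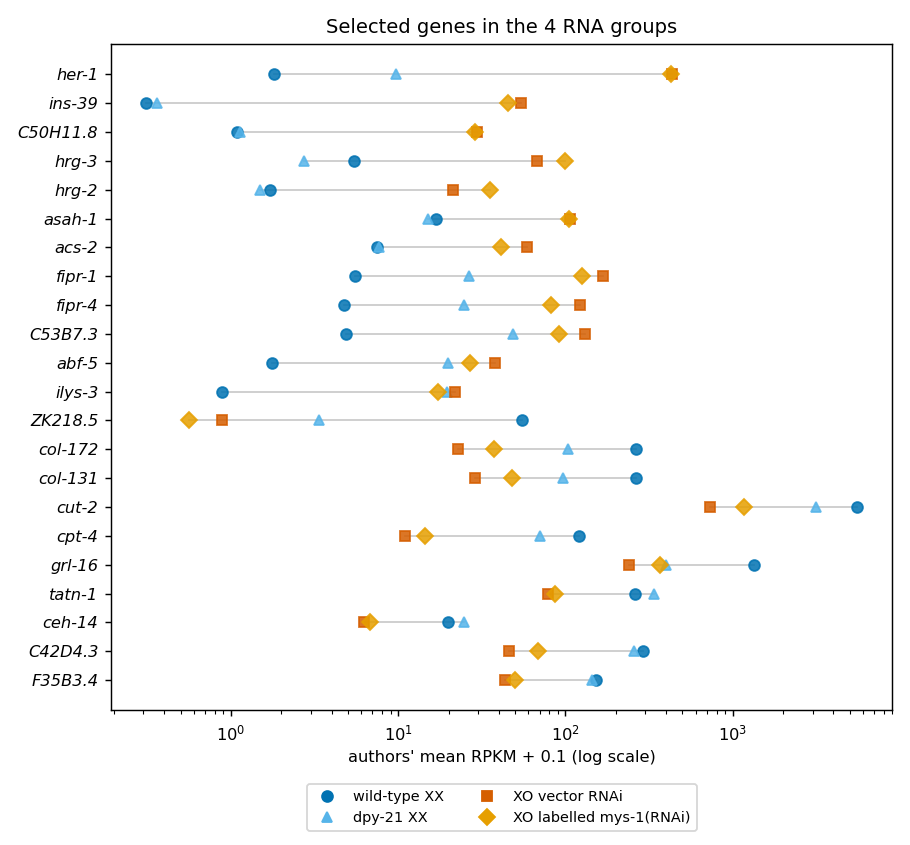
Authors' mean RPKM plus 0.1 (log axis) of 22 genes in the 4 RNA groups, 1 symbol per group mean. Both XX symbols lie together and apart from the XO symbols for ins-39, C50H11.8, acs-2, asah-1, C42D4.3 and F35B3.4, whereas dpy-21 XX lies next to the XO symbols for ilys-3, abf-5 and grl-16.

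Some of these genes have near copies, and a read of 50 bases can match more than 1 place. Of the 50-base windows in the gene body, 28.5% of those in fipr-4, 31.5% in fipr-7, 36.2% in fipr-10 and 26.6% in W02D7.11 occur elsewhere in the genome. The share was 0 for her-1, ins-39, hrg-2, hrg-3, acs-2, asah-1, cut-2, cpt-4, col-172, abf-5 and C53B7.3. The values of fipr-4, fipr-7, fipr-10 and W02D7.11 are therefore uncertain.

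Insulin-like peptides are secreted signals that act through the DAF-2 receptor. Of 40 genes for them, 28 passed the filter and 20 of the 28 were higher, against 17.5% of all genes, while none was lower. The median log2 ratio was 1.62, and 1.37 among those above 10 RPKM. In the second comparison 17 were higher and the median was 1.29, and 16 genes were higher in both. ins-20 had 0.150, 1.94, 6.23 and 7.36 RPKM in wild-type XX, dpy-21 XX, XO on vector and the labelled mys-1(RNAi) libraries. ins-29 had 2.95, 4.62, 19.3 and 11.8, and ins-25 had 0.213, 0.268, 2.04 and 2.75. At the other end ins-9 had 5.40, 3.74, 4.59 and 5.12 RPKM, ins-12 had 13.4, 8.28, 12.1 and 13.1, and ins-18 had 26.5, 24.6, 28.8 and 29.8.

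Among neuropeptide genes, higher calls outnumbered lower ones. Of 30 genes for FMRFamide-like peptides, 12 were higher and 1 was lower, against 17.5% and 7.29% of all genes. Their median was 0.73, and 0.07 in the second comparison. flp-33 had 13.2, 15.3, 61.7 and 51.4 RPKM and flp-6 had 22.7, 23.6, 83.4 and 78.1. flp-34 had 34.5, 30.2, 14.2 and 16.8 RPKM. Of 30 neuropeptide-like protein genes 9 were higher and 3 lower, with medians of 0.59 and 0.04. X-linked were 13 of the FMRFamide-like and 9 of the neuropeptide-like genes, against 2440 of the 15240 genes. The X-linked genes at large had a median of -0.45 in the second comparison, and the part of X linkage in these lists was not tested. nlp-12 had 265 and 443 RPKM in the XX groups and 98.0 and 123 in the XO groups, nlp-20 had 406 and 411 against 132 and 164, and nlp-23 had 5.92 and 6.58 against 0.393 and 0.724. These 3 lower genes were lower in both comparisons.

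Defence genes made another set with a large share higher. Of 61 antimicrobial peptide genes that passed, 31 were higher and 3 lower, against 17.5% and 7.29% of all genes, and the median was 1.00. In the second comparison 26 were higher and 6 lower, with a median of 0.49. fipr-1, of the fungus-induced protein family, had 5.39, 26.2, 168 and 126 RPKM, though it overlaps F23H12.5. The caenacin gene cnc-11 had 0.175, 2.03, 18.3 and 20.8 RPKM. abf-5 had 1.67, 19.7, 37.5 and 26.7, and abf-6 had 2.29, 15.2, 44.7 and 31.1. The saposin-like gene spp-5 had 2010.5 and 2731 RPKM in the XX groups and 956 and 882 in the XO groups.

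Of 13 lysozyme genes 5 were higher and none lower, against 17.5% and 7.29% of all genes, with a median of 0.84. Only 1 of the 5 was also higher in the second comparison, where 2 lysozyme genes were higher and 2 lower. lys-8 had 128, 103, 296 and 309 RPKM, whereas lys-7 had 44.0, 54.8, 103 and 75.7. Of 96 C-type lectin genes 30 were higher and 10 lower, with a median of 0.58, and 23 of the 30 and 7 of the 10 did the same in the second comparison. clec-196 had 2.204, 4.27, 23.0 and 38.3 RPKM and clec-233 had 10.8, 14.2, 1.67 and 2.15.

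Enzymes that modify foreign and internal small molecules had more higher members than the 17.5% of all genes. Of 52 UDP-glucuronosyltransferase genes 26 were higher and none lower, with a median of 0.98 and 0.72 in the second comparison. ugt-13 had 1.63, 8.61, 28.2 and 24.2 RPKM and ugt-4 had 0.613, 0.569, 6.84 and 5.69. Of 37 glutathione transferase genes 18 were higher and 1 lower, with medians of 0.99 and 0.63. gst-18 had 0.309, 0.111, 3.93 and 5.43 RPKM, gst-14 had 2.13, 2.94, 12.5 and 11.97, and gst-22 had 18.5, 23.4, 7.07 and 8.56. Of 47 cytochrome P450 genes 18 were higher and 4 lower, with medians of 0.79 and 0.40. The share of lower genes was 7.29% among all genes and 4.81% among protein-coding genes. Among genes above 10 RPKM the medians were smaller, at 0.49 for the UDP-glucuronosyltransferases, 0.64 for the glutathione transferases and 0.38 for the P450 genes. cyp-34A4 had 0.976, 1.42, 6.88 and 7.16 RPKM. None of the 4 lower P450 genes was lower in the second comparison. cyp-33C5 had 7.02, 2.47, 1.80 and 2.27 RPKM, with dpy-21 XX next to the XO groups.

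The col collagens had the lowest median of the lists, followed by the hedgehog-related genes. Of 159 col collagen genes 91 passed. Among the 91, 37 were lower and 18 higher, against 7.29% and 17.5% of all genes, so the higher share was near that of all genes. The median was -0.69 (0.054 with no filter on RPKM). The sum over the family was 25276 RPKM in wild-type XX, 15911 in dpy-21 XX, 14003 in XO on vector and 16221 in the labelled mys-1(RNAi) libraries. In the second comparison the median was 0.21, with 17 genes higher and 8 lower. Only 7 of the 37 lower genes were lower there and 4 were higher. The wild-type XX mean thus stood apart from the other 3 group means in this family. col-172, X-linked, had 264, 103, 22.6 and 37.5 RPKM and col-118 had 454, 240.0, 70.1 and 90.8. col-34 had 634, 307, 93.9 and 145 RPKM. In the other direction col-142 had 2.07, 13.4, 62.9 and 62.6.

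The collagens that shape the body had calls in both directions. Of 17 that passed, 4 were lower and 5 higher, against 7.29% and 17.5% of all genes. The median was -0.12 (-0.62 among those above 10 RPKM, and 0.47 in the second comparison). dpy-13 had 4243 RPKM in wild-type XX and 2017, 1729 and 2248 in the other groups, and sqt-3 had 4544, 2665, 2073 and 2283. None of the 4 lower genes was lower in the second comparison. By contrast dpy-14 had 0.107, 0.524, 19.6 and 40.9 RPKM, and dpy-17 had 0.971, 0.769, 19.0 and 38.3. For both of these, the XX means were all below 1 RPKM and the XO means all 19.0 or above.

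Hedgehog-related genes, which encode secreted proteins, had 13 lower and 3 higher of 36, against 7.29% and 17.5% of all genes. Their median was -0.50, and 0.21 in the second comparison. The median was -0.084 with no filter on RPKM and -0.88 above 10 RPKM. grl-16 had 1345 RPKM in wild-type XX and 400.4, 239 and 365 in the other groups. grl-1 had 44.2, 25.8, 6.63 and 9.33. Only 3 of the 13 lower genes were lower in the second comparison. Among 24 patched-related genes 5 were lower and 3 higher, none of them called the same way in the second comparison, and the median was -0.09. ptr-18 had 144, 76.9, 57.4 and 68.9 RPKM.

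Genes of the moulting cycle were called in both directions. Of 24, 5 were higher and 2 lower, against 17.5% and 7.29% of all genes and 15.3% and 4.81% of protein-coding genes. The median was 0.12, and was below zero when ratios were centred on autosomes or rescaled by the upper quartile. fbn-1, a fibrillin-like protein of the apical matrix, had 11.1, 30.1, 53.2 and 45.0 RPKM. nhr-23, a nuclear receptor that drives moulting, had 22.3, 42.8, 53.9 and 46.6, and nhr-25 had 37.4, 46.8, 18.4 and 22.8. None of the 5 higher genes was higher in the second comparison. Of 10 heterochronic genes, which set larval timing, 1 was lower and none higher. This gene, lin-46, had 30.3, 11.9, 10.1 and 13.2 RPKM, and lin-28 had 19.6, 30.7, 36.6 and 35.1. The stage of the larvae within L3 was not measured here, and its part in these values was not tested.

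Proteasome genes were shifted as a block by a small amount. All 32 lay within 2-fold, 31 of them below the median of all genes, and the median was -0.37 against -0.01 in the second comparison. The sum over the list was 5557.5 RPKM in wild-type XX, 4245 in dpy-21 XX, 4102 in XO on vector and 4088 in the labelled mys-1(RNAi) libraries. The wild-type XX mean thus stood apart from the other group means here too. pbs-1, a core particle subunit with the lowest ratio of the list, had 333, 252, 183 and 185 RPKM. rpn-2, near the high end of the list, had 84.7, 59.0, 83.8 and 82.7. The 78 cytosolic ribosomal protein genes had a median of -0.07, with 1 lower and none higher, against 7.29% and 17.5% of all genes. That gene, rpl-29, had 14922 and 12758 RPKM in the XX groups and 6849 and 6452 in the XO groups.

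Muscle genes were above the median of all genes for 22 of 25. Among the 25, 6 were higher and none lower, against 17.5% and 7.29% of all genes. The median was 0.61 (0.51 in the second comparison). The 3 largest ratios of the list belong to genes of pharyngeal muscle, and the next was myo-5, with 9.08, 12.3, 30.4 and 25.2 RPKM. myo-1 and myo-2, the pharyngeal myosin heavy chains, had 28.6, 39.5, 138 and 112 RPKM and 39.7, 72.3, 163 and 144 RPKM. tni-4, a pharyngeal troponin I, had 70.9, 105, 261 and 232 RPKM. The body wall gene unc-52, which encodes perlecan and stood at the low end of the list, had 217, 238, 259 and 248.

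Germ line genes differed less, apart from a small maternal set. Of 15 oocyte and eggshell genes that passed, 7 were higher and none lower, against 17.5% and 7.29% of all genes. All 7 were higher in the second comparison too. The medians of the 15 were 0.98 and 1.42. pos-1, a zinc finger regulator loaded into oocytes, had 1.496, 2.38, 14.4 and 22.9 RPKM. mex-5 had 2.12, 2.19, 6.81 and 10.7, mex-6 had 0.776, 0.769, 3.05 and 4.40, and oma-2 had 1.14, 1.41, 3.56 and 4.94. Of 23 genes of germ line and P granules 1 was higher, with a median of 0.28, while 8 were higher in the second comparison. gld-3 had 2.01, 1.39, 4.89 and 6.62 RPKM and gld-1 had 8.44, 6.52, 7.13 and 8.51. Of 24 meiosis genes 2 were higher, him-5 with 7.56, 6.28, 34.3 and 27.8 RPKM and syp-1 with 2.23, 1.56, 5.50 and 7.11. The summed RPKM of the oocyte list was 111, 102, 148 and 172. Of these sums lin-41, which is also on the heterochronic list, made up 81.6, 73.4, 82.5 and 77.6 RPKM. It differed little between groups, so the sums understate the difference in the rest of the list. The part of germ line content in these values was not tested.

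Because RNAi feeding differed between the groups, small RNA genes were examined as a list. Of 38 that passed, 1 was higher and none lower, against 17.5% and 7.29% of all genes, and the median was 0.19. The higher gene was rrf-2, an RNA-directed RNA polymerase, with 1.96, 4.52, 19.9 and 23.5 RPKM. sid-2, which takes up double-stranded RNA in the intestine, had 26.2, 33.2, 15.1 and 16.04. Heat shock genes had 3 higher and none lower of 17, a higher share near the 17.5% of all genes. The same 3 were higher in the second comparison. hsp-12.6 had 0.261, 1.34, 6.29 and 9.38 RPKM. Of 35 lipid genes 7 were higher and 1 lower, with a higher share and a median (0.21) near those of all genes.

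Lists of regulators were read against the same 17.5% and 7.29% of all genes. Of 190 nuclear hormone receptor genes 29 were higher and 4 lower, with a median of 0.38 and 0.12 in the second comparison. nhr-265 had 0.330, 2.01, 5.15 and 7.51 RPKM and nhr-85 had 57.5, 45.7, 24.1 and 26.5. Of 46 ceh homeobox genes 14 were higher and 2 lower. ceh-17 had 0.402, 0.534, 4.42 and 3.64 RPKM. Of 26 genes of vulval induction and Wnt signalling 5 were higher and 4 lower. The Wnt ligands lin-44 and egl-20 had 37.4, 32.6, 10.3 and 13.7 RPKM and 70.8, 69.9, 28.9 and 37.3 RPKM, and the EGF ligand lin-3 had 1.89, 3.53, 7.44 and 7.29.

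The remaining lists were close to the bulk or mixed, read against the 17.5% of all genes that were higher and the 7.29% that were lower. Of 40 histone genes 7 were higher and none lower, with a median of 0.22 but 1.08 in the second comparison. Of 32 replication and cyclin genes 2 were higher, cyb-3 with 18.5, 23.8, 43.2 and 56.9 RPKM and cyb-2.2 with 0.688, 1.03, 1.87 and 2.48. Of 93 F-box A genes 22 were higher and 5 lower, with medians of 0.32 and -0.06. Of 1629 serpentine receptor genes only 51 passed, 13 of them higher and 8 lower. odr-10, the diacetyl receptor, had 1.14, 1.97, 4.88 and 4.54 RPKM. Of 8 sperm genes that passed besides the major sperm proteins 1 was higher and none lower.

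**Figure D3:**
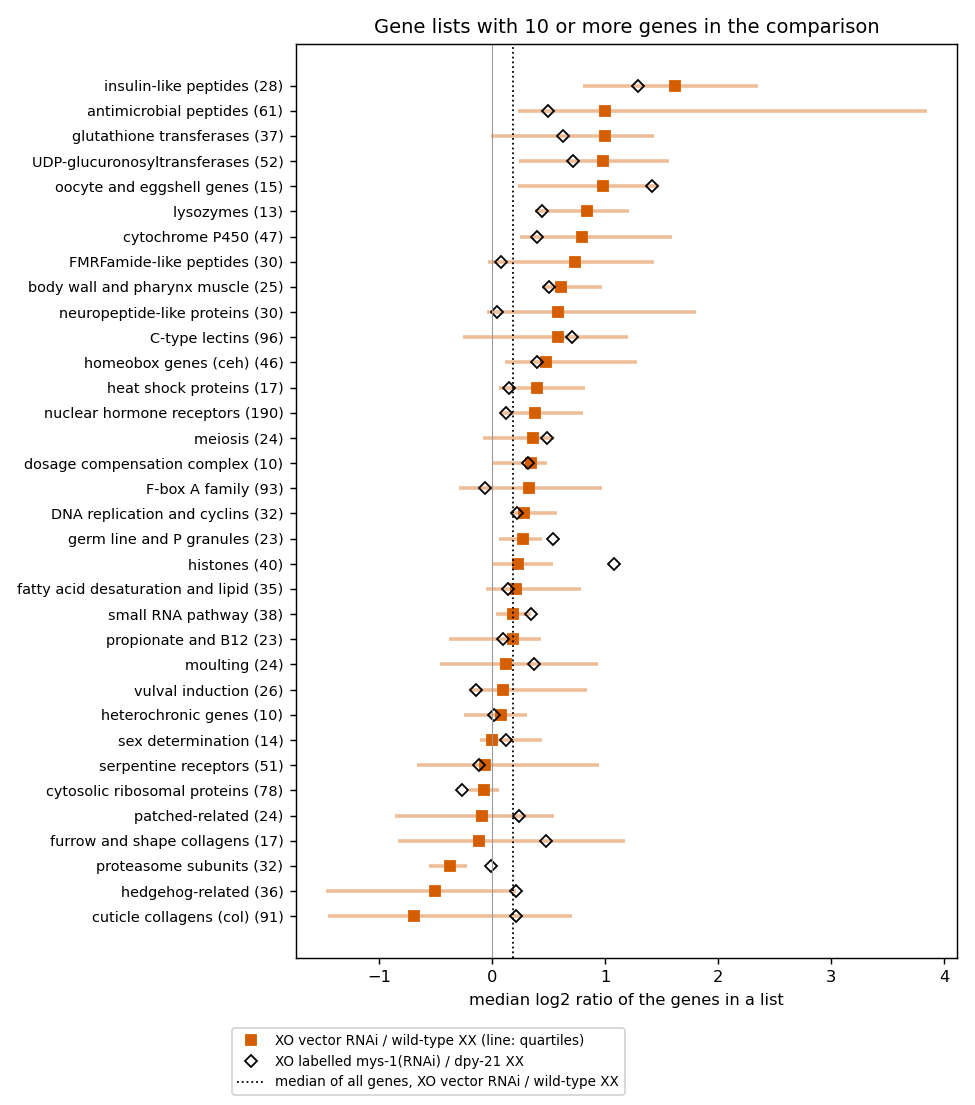
Median log2 ratio of each gene list with 10 or more genes in the comparison (number in brackets), for XO on vector against wild-type XX (orange squares, with quartiles over genes as lines) and for the libraries labelled mys-1(RNAi) against dpy-21 XX (open diamonds). The insulin-like peptides have the highest median (1.62 and 1.29), and the col collagens (-0.69 and 0.21) and hedgehog-related genes (-0.50 and 0.21) lie on opposite sides of zero in the comparisons.

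The X chromosome was compared with autosomes to ask how RNA from 1 uncompensated X relates to RNA from 2 compensated ones. On the X, 2440 genes had a median log2 ratio of 0.10. On the autosomes, 12635 genes had a median of 0.20, which puts the X -0.10 from them. Chromosomes I to IV had medians between 0.17 and 0.19, and chromosome V had 0.27. Of the X-linked genes 17.99% were higher, close to 17.4% on autosomes, and 10.0% were lower against 6.73%. Chromosome V had the largest share of higher genes, 23.4%. Because the autosomal median was 0.20, centring on it placed the X median at -0.10 and left 378 X-linked genes higher and 319 lower, in place of 439 and 244.

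In the comparison with dpy-21 XX the X stood further away. The X-linked median there was -0.45 and the autosomal one 0.25, which puts the X -0.70 from autosomes. The ratio of dpy-21 XX to wild-type XX, which uses the same wild-type libraries as the main comparison, had a median of 0.55 on X and -0.02 on autosomes. Of the 250 genes with both XX means above both XO means 89 were X-linked, 3.65% of X-linked genes against 1.24% of autosomal ones. Of the 1134 of the reverse kind 108 were X-linked, 4.43% against 8.01%. Both rules use the dpy-21 XX mean, which was raised on the X. A raised mean makes the first rule easier to meet and the reverse rule harder. The main comparison does not use that mean, and its lower share was 10.0% on the X and 6.73% on autosomes. Its higher share was 17.99% on the X and 17.4% on autosomes. How much the rules add to the 4-mean differences was not tested.

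The difference between X and autosomes varied with RNA level. Between 1 and 3 RPKM, 509 genes of the X had a median of 0.37 and 2256 autosomal genes had 0.56. Between 3 and 10 RPKM the medians were 0.09 and 0.32, and between 10 and 30 RPKM 0.03 and 0.15. Between 30 and 100 RPKM they were 0.07 and 0.08. Above 100 RPKM the order turned, the median being 0.10 over 200 genes of the X and 0.03 over 1232 autosomal genes, 0.07 apart. The share of higher genes on autosomes fell from 35.5% in the lowest class to 7.95% in the highest, so most calls were made at low RPKM. Along the X, windows of 1 Mb had medians between -0.10 and 0.24, over 76 to 182 genes each.

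**Figure D4:**
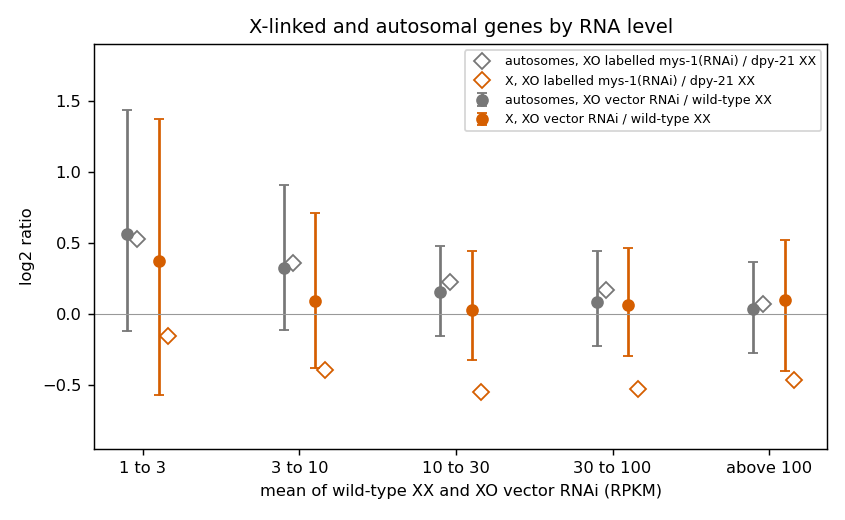
Median log2 ratio (filled circles, with quartiles over genes as bars) of autosomal (grey) and X-linked (orange) genes in 5 classes of average RPKM, and the median of the same genes for the libraries labelled mys-1(RNAi) against dpy-21 XX (open diamonds). The X median is below the autosomal one up to 30 RPKM, near it from 30 to 100 RPKM and above it over 100 RPKM, while the open X symbols lie below zero in every class.

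Named X-linked genes ranged widely around these medians. The 8 highest, with an average above 10 RPKM, lay between 3.50 and 7.44 and included ins-39, C53B7.3, abf-5, abf-6, fipr-3, M163.8, ugt-57 and F09B12.7, of which 4 passed 2-fold in the second comparison. F09B12.7, which overlaps flr-4, had 1.64, 13.1, 21.6 and 7.40 RPKM. ugt-57 had 2.97, 14.8, 34.6 and 31.3, and M163.8 had 2.17, 8.68, 26.6 and 16.8. All 8 were higher in dpy-21 XX than in wild-type XX, whose low mean was part of their choice. The 8 lowest lay between -3.54 and -2.10, and 6 passed 2-fold in the second comparison. adt-1, a secreted metalloprotease of the ADAMTS family, had 47.0, 31.4, 7.96 and 12.4 RPKM. The others were col-172, C36B7.5, B0403.5, grd-14, F18E9.4, C30F2.4 and R04B3.3. B0403.5 had 44.7, 50.2, 8.19 and 12.5 RPKM, and grd-14, a hedgehog-related gene, had 262, 152, 55.2 and 87.0.

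Higher genes lay next to each other more often than genes at large. Of 1987 higher protein-coding genes, 25.9% had a higher gene as the next protein-coding gene in the comparison, against 15.3% of all such genes being higher. For lower genes the shares were 11.9% and 4.82%. Families of copies, and operons whose genes are transcribed together, place related genes side by side, and their part was not tested. The run with the highest median, 4.38, held 6 genes from C01G10.15 to C01G10.16 within 7.48 kb of chrV:15086913-15094389. A run of 5 glutathione transferase genes, gst-20 to gst-12, covered 9.91 kb of chrII:13608154-13618061 with a median of 2.204. On the X, 6 genes from F59F3.6 to F58A3.3 had a median of 1.44 over 16.6 kb. A lower run of 5 genes from clec-229 to srx-58, with wrt-8 and clec-230, covered 14.0 kb on chrV:15340006-15353985 with a median of -2.07.

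Calls were not spread evenly over types of gene. Of 12968 protein-coding genes 15.3% were higher and 4.81% lower. Of 1424 genes annotated as ncRNA 35.4% were higher and 24.9% lower. Among 200 snoRNA genes 18.5% were higher and 30.5% lower, with a median of -0.15. The study describes the libraries as mRNA-seq, so RNA of these other types may be poorly sampled. Calls were also more frequent at low RPKM, and the RNA levels and lengths of the gene types were not compared. Of the 15240 genes, 364 were listed at 0 in wild-type XX and 191 in XO on vector, but only 19 and 1 of these are protein-coding. C41C4.20, an ncRNA named after its values were seen, was listed at 512 RPKM in wild-type XX, 0.029 in dpy-21 XX and 0 in both XO groups.

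H4K16ac ChIP-seq was made from larvae of the same strains, and the promoter peaks of genes were set beside their RNA. H4K16ac is an acetyl mark found at active promoters. As far as the labels say, the XO larvae for ChIP-seq had no RNAi, whereas those for RNA were fed vector RNAi, so feeding also differs between the XO peaks and the XO RNA. The ChIP-seq had 3 libraries per background, with peaks called on all of them together, and a promoter peak is 1 that overlaps the 500 bp before a gene start. On autosomes 70.1% (95% Wilson interval 69.1 to 71.0) of the 8786 protein-coding genes within 2-fold had a peak in XX. Of the 1686 higher genes 39.6% (37.3 to 41.98) had one, and of the 494 lower genes 24.7% (21.1 to 28.7). With the peaks of XO the shares were 72.5%, 42.8% and 37.7%. These intervals cover the counting of genes only. Called genes were less abundant than others, and among genes above 10 RPKM the XX shares were 76.9%, 47.7% and 29.8%, in the same order.

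On the X, more genes had a peak in XO than in XX in each class of RNA difference. The share with a peak in XX and in XO was 32.3% and 58.8% for the 1559 X-linked genes within 2-fold. It was 12.3% and 39.2% for the 301 higher genes, and 3.85% and 29.2% for the 130 lower genes. A peak in XO alone was present at 28.2% of higher, 26.2% of lower and 27.5% of other X-linked genes, so this share was alike whichever way the RNA differed. On autosomes a peak in XO alone was present at 8.72% of higher, 17.2% of lower and 6.75% of other genes. The median log2 ratio of X-linked genes was 0.13 for the 547 genes with a peak in XO alone, 0.07 for the 526 with a peak in both and 0.12 for the 897 with none. On autosomes it was 0.20, 0.16 and 0.35.

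**Figure D5:**
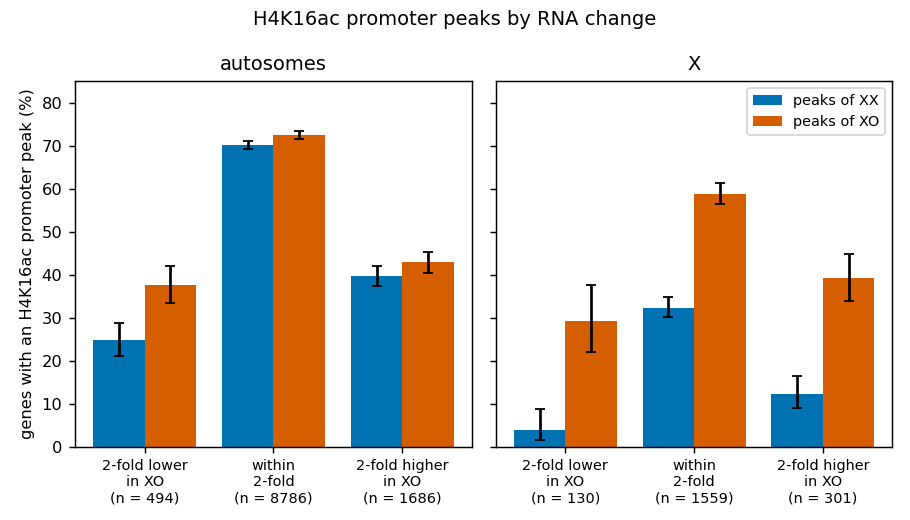
Share of protein-coding genes with an H4K16ac peak in the 500 bp before the start, for autosomes and X, by the RNA class of the gene (lower, within 2-fold or higher in XO on vector against wild-type XX) and with the peaks of XX (blue) and XO (orange); bars start at 0 and error bars are 95% Wilson intervals over genes. On the X the orange bars exceed the blue ones in all 3 classes, and on both panels the genes within 2-fold have the tallest bars.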

How the data were processed

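RNA-seq reads from 18 libraries of L3 larvae were aligned by the authors with TopHat2 2.0.13, and per the labels and the study's methods RPKM was computed with Cufflinks 2.2.1. The authors deposited the mean RPKM of each group, 4 columns in all, with no column per library. Depth per library is not in these values, so no interval for sampling of reads was given. A further deposited table holds the authors' DESeq2 log2 fold changes and adjusted p-values for dpy-21 against wild type and for mys-1(RNAi) against vector, and was not used. The H4K16ac peaks are broad MACS2 2.1.0 peaks of pooled replicates on genome version WS235.

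Log2 ratios were computed in python 3.11.15 with pandas 2.3.3 after adding 0.1 RPKM, for genes whose mean of both groups exceeded 1 RPKM. Gene positions were read from release 115 of the Ensembl annotation (build WBcel235), in which 299 of 46170 gene identifiers were not found. This is the assembly of WS235. Sequences came from the RefSeq genome of that build. Repeated sequence was counted over 50-base windows of the gene body, introns included, with exact matches on both strands.

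Named genes were the genes mutated or targeted in the strains, the 15 highest and 15 lowest protein-coding genes above 10 RPKM, the 8 highest and 8 lowest on X, and up to 4 members at each end of each list. Other named genes were chosen after their values were seen, for agreement over the 4 group means. Genes and the 40 lists were chosen with earlier results of these data known. A list of pals genes matched no name and was dropped. Nothing in the labels says that libraries of a group came from separate cultures. The scripts were tested on simulated data.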

Additional observations from a re-analysis of the deposited data

How the results depend on the processing

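No paired analysis was possible because the RPKM table used here holds group means alone, and no library could be left out for the same reason. Against 2674 higher and 1111 lower genes in all, and 439 and 244 on X, an average above 10 RPKM gave 899, 491, 154 and 88. No filter beyond a value above 0 gave 5215, 1781, 894 and 400. A 1.5-fold threshold gave 4321, 1927, 674 and 434, and a 4-fold threshold gave 1101, 391, 191 and 84. Protein-coding genes alone gave 624 lower genes, 130 of them on X. With all 4 group means, an alternative chosen after seeing the data, the counts were 1134, 250, 108 and 89. Pseudocounts of 1 and 0.01 RPKM left every one of these counts within 1.5 times. Centring on the autosomal median gave 2195 higher and 1422 lower genes, which took the share of higher among called genes from 70.6% to 60.7%. The difference between X and autosomes stayed between -0.10 and -0.06 under each pseudocount, filter, gene type and scaling and was -0.70 where dpy-21 XX was compared with the libraries labelled mys-1(RNAi).

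Of 249 list medians under alternatives, 144 moved by 0.1 or less, 88 moved by more and 17 changed sign. An average above 10 RPKM turned the serpentine receptors to 0.24 and vulval induction to -0.069. No filter turned the col collagens to 0.054 and the serpentine receptors to 0.29. Protein-coding genes alone turned the other sperm genes to -0.065. Centring on autosomes turned sex determination to -0.20, other sperm genes to -0.14, moulting to -0.072, heterochronic genes to -0.12, propionate and vitamin B12 to -0.014, small RNA genes to -0.0086 and vulval induction to -0.10. Rescaling by the upper quartile turned sex determination to -0.14, other sperm genes to -0.083, moulting to -0.015, heterochronic genes to -0.059 and vulval induction to -0.040. A promoter of 1000 bp gave peak shares of 42.9% in XX and 48.6% in XO for higher autosomal genes, and 29.2% and 41.9% for lower ones. The causes were not tested.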
